A study of Mus musculus with 24 samples.

Results

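The genes described here move bicarbonate, protons and chloride across the membranes of intestinal epithelial cells, or hydrate the carbon dioxide that feeds these exchanges. They are 10 genes, taken from a list and matched by symbol to the Ensembl identifiers in the count tables: the anion exchangers Slc26a3, Slc26a6 and Slc26a9, the bicarbonate transporters Slc4a2, Slc4a4 and Slc4a7, the sodium/proton exchangers Slc9a2 and Slc9a3, and the carbonic anhydrases Car2 and Car4. The tables hold 54146 genes, and all 10 were found. After a filter on low counts, 9 of the 10 were tested among 15602 genes in the genotype experiment and 8 of the 10 among 15467 genes in the inhibitor experiment.

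An epithelial cell of the gut absorbs salt when an apical sodium/proton exchanger works beside an apical chloride/bicarbonate exchanger, and the carbonic anhydrases supply the protons and the bicarbonate. The same bicarbonate can be secreted into the lumen, where it neutralises acid and lets mucus unfold. Basolateral sodium/bicarbonate cotransporters of the Slc4 family load bicarbonate into the cell. Slc26a3 is known from congenital chloride diarrhoea, in which its loss leaves chloride unabsorbed.

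RNA was sequenced from organoids of mouse small intestine, which are cultures of epithelial cells that form crypt-like buds, in 24 libraries, 12 for each of 2 experiments, and every group has 3 libraries, which the labels call biological triplicates. The genotype experiment compared organoids labelled wild type (WT), CDK8-/-, CDK19-/- and CDK8-/- and CDK19-/- (double knockout), where the mutant labels name one or both of the paralogous genes that encode the Mediator kinases. The labels give 7 days of 600 nM 4-hydroxytamoxifen, the drug that activates the CreERT2 recombinase, in a protocol text common to all libraries, and it was taken to apply to the genotype libraries, WT included. According to the study's methods, Cdk8 was deleted from loxP-flanked alleles by CreERT2 under the Villin promoter, which is active in intestinal epithelium, and Cdk19 was disrupted with a lentiviral Cas9 vector and single organoids were picked and expanded, so that a Cdk19 mutant line is a clone. The inhibitor experiment compared DMSO, the vehicle, with Senexin B, an inhibitor of both kinases, after 16 h and after 24 h. Labels of the genotype libraries name 4T1, a mouse mammary carcinoma line, as the cell type. All 6 markers of intestinal epithelium (Vil1, Cdx2, Epcam, Krt20, Cdh17 and Lgals4) were present, with a summed level of 5194 to 7281 CPM (counts scaled to a common library size) in the genotype libraries, whereas 6 mammary markers summed to at most 1.93 CPM.

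In the column used, the genotype libraries held 14636861 to 15473180 counts on genes and the inhibitor libraries 27075937 to 28405118. A gene of a given share was thus measured with more counts in the latter. The genotype reads carry no strand information (49.6 to 49.7% of stranded counts fell in the column used), against 87.9 to 90.5% in the inhibitor libraries. Total reads were not fewer in the genotype libraries (41879958 to 42068649, against 36042777 to 36255610). A column of a single strand leaves out the reads that fell on the other strand. Counts of Cdk8 were not lower in the libraries labelled CDK8-/- (685, 857 and 634 normalised counts) than in WT (635, 646 and 534), which bears on the whole gene and not on the deleted exon. Cdk19 stood at 729 normalised counts in the library labelled CDK19-/- replicate 1 and at 773 in the library labelled double knockout replicate 3, as in WT (711, 749 and 726), and at 355 to 422 in the other 4 Cdk19 mutant libraries. These counts also bear on the whole gene. The study reports a deletion within the first exon of Cdk19 and absence of the protein by Western blot, so a WT level does not show an intact gene. Calls of the exchange genes that change without those libraries are given with and without them.

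Promoter sequences of 8 of the 10 genes were found in a RefSeq table of the GRCm38.p6 build, at 10 start sites. The 250 bases before the start are shown for Slc26a3, Slc26a9 and Slc4a2, since Slc26a3 and Slc4a2 were called in the double knockout and Slc26a9 had the largest fitted value there. Slc26a6 was called as well, but its window is not printed because all 250 of its bases lie in an annotated UTR; it held 1 GC box and none of the other motifs below. Capitals mark matches, on either strand, to 6 motifs. The motif of the TATA box was spelled TATAAA in the search. The GC box, which Sp1 binds, was spelled GGGCGG and the core bound by intestinal Cdx factors was spelled TTTATG in it. For the half-site of Hnf1, a factor of enterocytes, the letters were GTTAAT and for the site of zinc finger factors of the Gata family they were AGATAA. For the site of Stat factors the search used TTCNNNGAA, and overlapping matches were counted. The windows lie on the + strand at chr12:31437969-31438218, inside an intron of a longer annotated transcript of Slc26a3, with 2 bases in an annotated UTR, at chr1:131743772-131744021, just before the first annotated exon of Slc26a9, and at chr5:24424982-24425231, the first of the 2 starts listed for Slc4a2, inside an intron of longer transcripts.
Slc26a3: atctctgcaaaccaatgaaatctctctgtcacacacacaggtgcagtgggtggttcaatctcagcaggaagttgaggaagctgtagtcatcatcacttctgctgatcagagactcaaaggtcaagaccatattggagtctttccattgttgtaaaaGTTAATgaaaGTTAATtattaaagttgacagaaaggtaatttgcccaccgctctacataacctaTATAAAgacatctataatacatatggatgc
Slc26a9: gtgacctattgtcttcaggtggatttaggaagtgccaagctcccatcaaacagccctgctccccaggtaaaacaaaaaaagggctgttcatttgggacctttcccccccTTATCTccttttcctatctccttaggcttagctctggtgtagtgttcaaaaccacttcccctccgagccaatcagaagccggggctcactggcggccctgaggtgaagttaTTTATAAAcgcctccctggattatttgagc
Slc4a2: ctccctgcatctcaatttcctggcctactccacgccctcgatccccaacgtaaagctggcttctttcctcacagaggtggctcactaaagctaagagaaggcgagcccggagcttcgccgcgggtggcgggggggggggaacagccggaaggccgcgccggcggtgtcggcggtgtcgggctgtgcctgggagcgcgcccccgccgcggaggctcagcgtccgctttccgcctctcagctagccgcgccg
The Slc26a3 window held 1 TATA box and 2 Hnf1 half-sites, that of Slc26a9 held the TATA letters on both strands at overlapping positions and 1 Gata site, and that of Slc4a2 held none of the 6 motifs. Among 32851 promoter windows of this length, 12.4% held the TATA box, 6.43% the Hnf1 half-site, 9.99% the Gata site, 32.7% the GC box, 10.8% the Cdx core and 7.02% the Stat site. The share of G and C was 38.8% for Slc26a3, 50% for Slc26a9 and 69.2% for Slc4a2, against a median of 52.4% over all windows. No motif was shared by all 3 windows, and a match describes the sequence and not the binding of a factor.

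To place the genes relative to each other, counts were divided by the library size and by the exon length (RPKM). In WT organoids of the genotype experiment Slc26a6, the apical chloride/bicarbonate and oxalate exchanger of the small intestine, had the highest level of the 10, 29.7 ± 3.3 RPKM (SD, n = 3). Slc4a2, a basolateral chloride/bicarbonate exchanger, followed with 18.5 ± 1.33 RPKM and Slc26a3, its apical counterpart, with 15.8 ± 1.43 RPKM. The next 3 lay close together, with 9.74 ± 0.61 RPKM for the sodium/bicarbonate cotransporter Slc4a4, 9.62 ± 0.632 RPKM for Slc9a2 and 8.52 ± 0.985 RPKM for the electroneutral cotransporter Slc4a7, and these neighbours did not differ beyond their spread. Slc9a3, the main apical route of sodium uptake, had 5.84 ± 0.607 RPKM and the cytosolic enzyme Car2 5.22 ± 0.992 RPKM, again within their spread. Slc26a9, a chloride transporter known from stomach and airway, had 0.092 ± 0.0352 RPKM. Car4, a membrane-anchored carbonic anhydrase, had 0.0816 RPKM, all of it from 1 of the 3 WT libraries. In DMSO organoids at 16 h Slc26a6 was again first (24.3 ± 7.05 RPKM) and Slc4a2 second (19.6 ± 1.84 RPKM), Slc9a2 (11.9 ± 1.07), Car2 (11.1 ± 0.616) and Slc4a4 (10.2 ± 1.05 RPKM) stood above Slc26a3 (7.74 ± 0.567 RPKM), and Slc26a9 and Car4 were at 0.0114 and 0.0122 RPKM. Levels of the 2 experiments come from different library preparations and were not tested against each other.

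**Figure D1:**
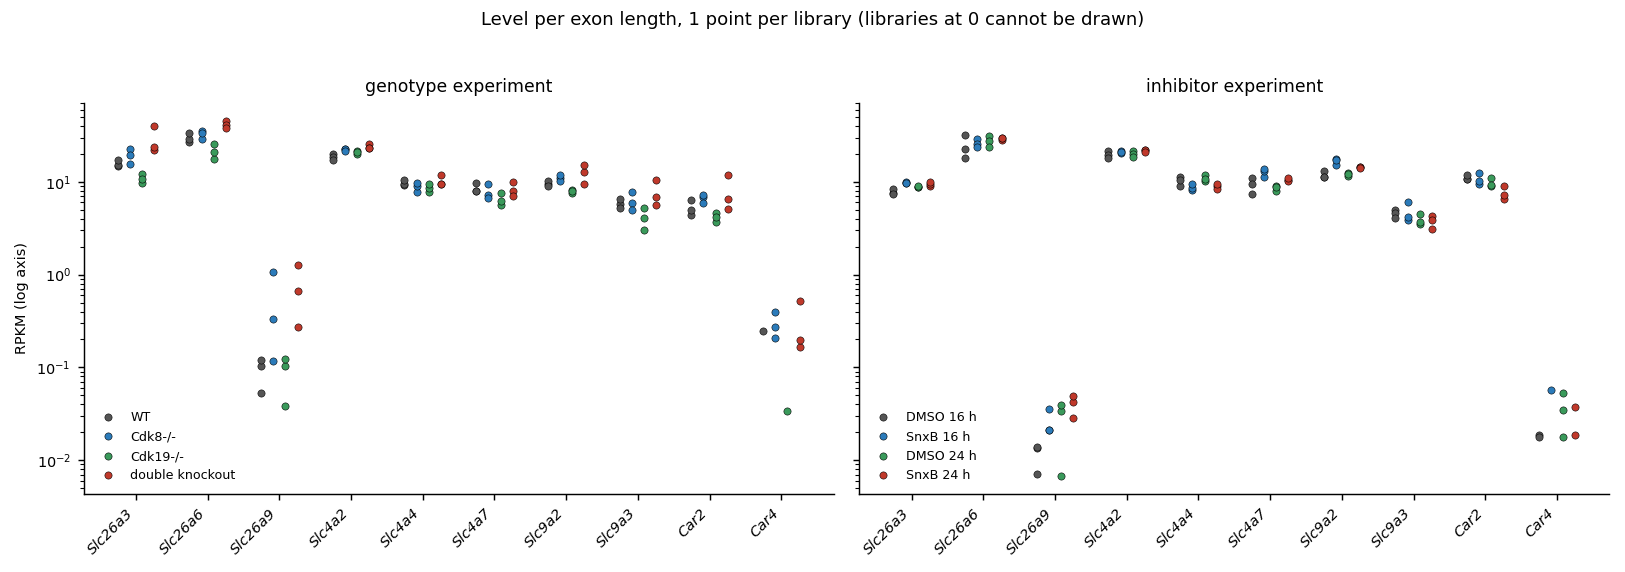
Level per exon length (RPKM, log axis) of the 10 genes, 1 point per library, coloured by group, with the genotype experiment on the left and the inhibitor experiment on the right; libraries at 0 are not drawn. The other 8 genes lie between 2.99 and 45.3 RPKM in every library, while Slc26a9 and Car4 lie far below them.

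In double knockout organoids Slc26a3, Slc26a6 and Slc4a2 were called, all of them higher than WT. They are 3 of the 8 genes that had 10 or more counts throughout the genotype libraries, and Slc26a9, which was tested but fell below that count, is described apart. A gene was called at a Benjamini-Hochberg adjusted p under 0.05 in the quasi-likelihood test of edgeR over all genes, and 17.3% of all genes tested were called in this comparison, with 9.41% of all genes tested called as higher. The median log2 fold change was 0.38 over the 8 genes and -0.01 over all genes tested. The list of deregulated transporters that the study drew from these same libraries contains all 3 and Slc26a9, so the count is not independent evidence of a direction.

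Slc26a3 (chr12:31390871-31473917) had 1398, 1446 and 1654 normalised counts in WT, against 3812, 2099 and 2236 in double knockout organoids. The groups did not overlap, and replicate 1 of the double knockout stood far above the other two. The log2 fold change was 0.86 with an SE of 0.207 (edgeR, adjusted p = 0.0155), and it was 0.54 without that library (adjusted p = 0.0315). The call was lost without WT replicate 1 (adjusted p = 0.0677) or WT replicate 2 (adjusted p = 0.0556). The libraries labelled CDK8-/- had 1474, 2158 and 1849.5 normalised counts and those labelled CDK19-/- had 1154, 919 and 1017. The order of the means was thus Cdk19-/-, WT, Cdk8-/- and double knockout, and the first of these groups lay below every WT library while the third overlapped both neighbours.

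Slc26a6 (chr9:108853283-108913049) had 2154, 2357 and 2684 normalised counts in WT, against 3665, 3279 and 3051 in double knockout organoids. All 3 double knockout libraries were higher than all WT and all Cdk8-/- libraries (2862, 2367 and 2732). The log2 fold change against WT was 0.47 with an SE of 0.136 (edgeR, adjusted p = 0.0331). The call was lost without WT replicate 1 (0.40, adjusted p = 0.132), WT replicate 2 (0.47, 0.0869), double knockout replicate 1 (0.41, 0.0843) or double knockout replicate 2 (0.49, 0.0676). In libraries labelled CDK19-/- the gene had 2084.5, 1435 and 1706 normalised counts, below every WT library.

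Slc26a9 (chr1:131744022-131771504) had 8.0, 4.1 and 9.4 normalised counts in WT, 26.2, 9.2 and 83.5 in libraries labelled CDK8-/-, 8.1, 9.7 and 3.0 in those labelled CDK19-/- and 21.4, 98.5 and 52.4 in double knockout organoids. It passed the filter on low counts through the Cdk8-/- and double knockout libraries, and within each of these groups the highest library exceeded the lowest several times. A gene so low in WT is tested only if another group is high, so its values are given as a description and are not counted with the others. The fitted log2 fold change of the double knockout was 2.98 with an SE of 0.791 (edgeR, adjusted p = 0.0237), and its 95% interval ran from 1.26 to 4.70. The call was lost without any 1 of the WT libraries (2.72 to 3.22, adjusted p = 0.0592 to 0.0913) and without double knockout replicate 2 (2.35, adjusted p = 0.0843). In Cdk8-/- organoids it was 2.45 with an SE of 0.801, which was not called by edgeR (adjusted p = 0.102), while DESeq2 called it (adjusted p = 0.0245), and edgeR called it without CDK8-/- replicate 2 (2.92, adjusted p = 0.0414), while without CDK8-/- replicate 3 it was 1.27 (adjusted p = 0.377).

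Among the bicarbonate transporters, Slc4a2 (chr5:24423837-24440950) had 2449, 2326 and 2122 normalised counts in WT, against 3166, 2908 and 2843 in double knockout organoids. Its change was the smallest of those called in the double knockout, with a log2 fold change of 0.37 and an SE of 0.0797 (edgeR, adjusted p = 0.0089). Libraries labelled CDK8-/- (2773, 2774 and 2643) and CDK19-/- (2702, 2458 and 2589) also lay above every WT library, with log2 fold changes of 0.25 (adjusted p = 0.0972) and 0.17 (adjusted p = 0.478) in edgeR. Of the exon length of Slc4a2, 13.7% overlaps Fastk on the opposite strand, and these reads cannot be told apart in the genotype libraries. Fastk itself had a log2 fold change of 0.16 in the double knockout (edgeR, adjusted p = 0.223), and Slc4a2 was also called in the unstranded column, where reads shared by both genes are left out (log2 fold change 0.35, adjusted p = 0.00749).

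Slc4a4 (chr5:88886818-89239653) had 1503, 1531 and 1686 normalised counts in WT, against 1903, 1534 and 1518 in the double knockout (log2 fold change 0.07 with a 95% interval from -0.18 to 0.32). Slc4a7 (chr14:14702279-14799940) had 1793, 1822 and 2194 in WT and 2261, 1816 and 1607 in the double knockout (log2 fold change -0.03 with an interval from -0.39 to 0.33). The groups overlapped for both cotransporters, and the intervals leave room for changes in either direction.

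Of the sodium/proton exchangers, Slc9a2 (chr1:40680574-40769273) had 999.7, 1072 and 941 normalised counts in WT, against 1341, 1577 and 983 in double knockout organoids. It was not called (log2 fold change 0.37, SE 0.139, edgeR adjusted p = 0.0852), and the overlap came from replicate 3, 1 of the libraries with Cdk19 at the WT level. Without it the log2 fold change was 0.54 and the gene was called (adjusted p = 0.00622), whereas without replicate 2 it was 0.21 (adjusted p = 0.313). Slc9a3 (chr13:74121457-74169442) had 479, 531 and 431 in WT and 858, 567 and 467 in the double knockout, with a log2 fold change of 0.39 and an SE of 0.24 (edgeR, adjusted p = 0.284). Without double knockout replicate 1 the log2 fold change of Slc9a3 was 0.12 (adjusted p = 0.767).

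The carbonic anhydrase Car2 (chr3:14886273-14900770) had 159, 179 and 229 normalised counts in WT, against 238, 431 and 185 in double knockout organoids. It was not called (log2 fold change 0.59, SE 0.26, edgeR adjusted p = 0.138), and was called without double knockout replicate 3 (log2 fold change 0.82, adjusted p = 0.0337), whereas without replicate 2 the value was 0.16 (adjusted p = 0.618). Car4 (chr11:84957786-84966044) had 0, 7.2 and 0 normalised counts in WT, 8.1, 6.1 and 11.5 in libraries labelled CDK8-/-, 0, 0 and 1.0 in those labelled CDK19-/- and 15.3, 4.9 and 5.8 in double knockout organoids. It did not pass the filter and was not tested, and a count of 0 allows up to 3 counts by counting error alone. Across the 4 groups, double knockout replicate 1 held the highest Slc26a3, Slc26a6, Slc4a2, Slc4a4, Slc4a7, Slc9a3 and Car4 of all 12 libraries, and replicate 2 the highest Slc26a9, Slc9a2 and Car2.

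**Figure D2:**
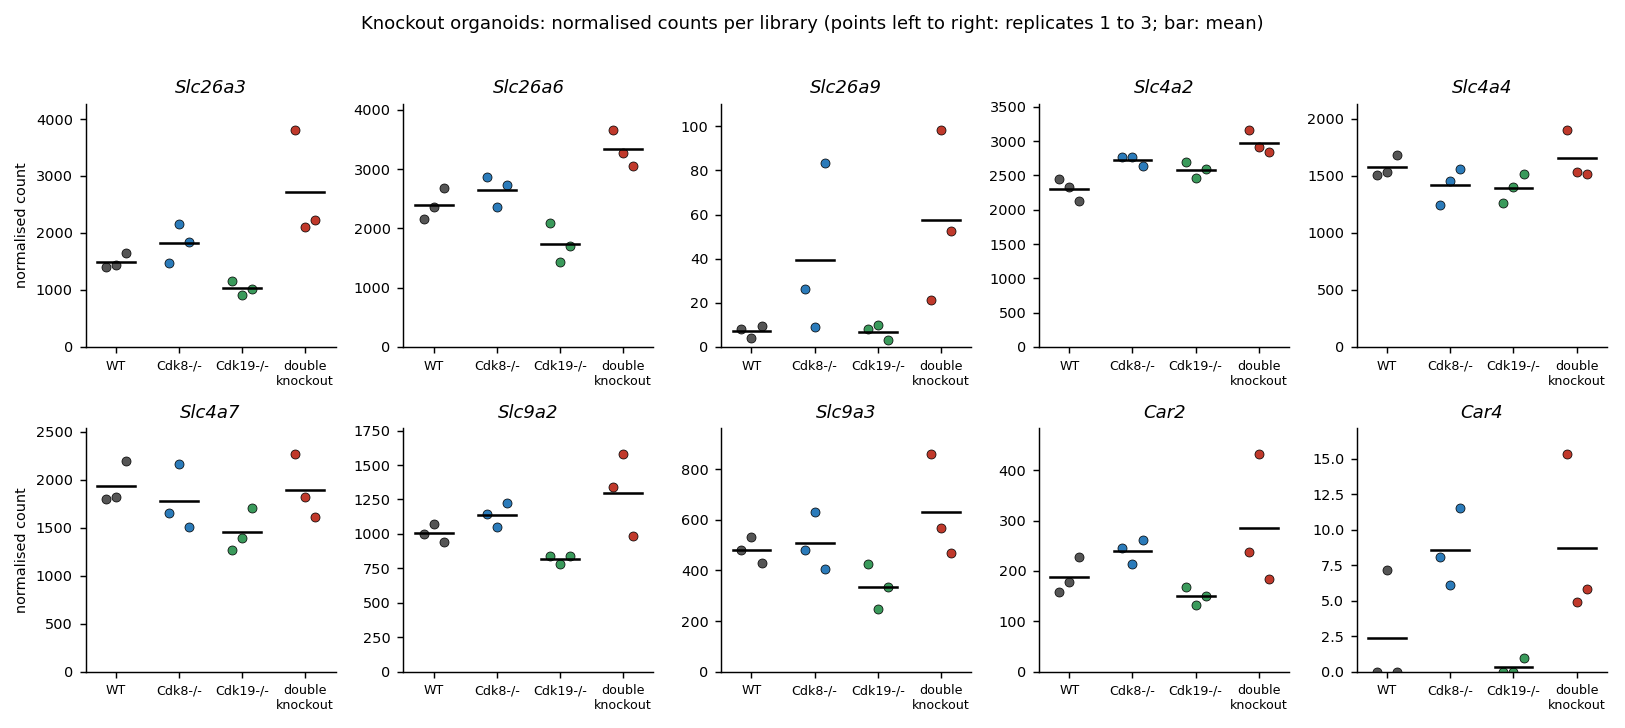
Normalised counts (vertical axis, from 0, own scale per gene) of the 10 genes in the 12 libraries of the genotype experiment, with replicates 1 to 3 from left to right and a bar at the mean. The double knockout libraries of Slc26a3, Slc26a6, Slc26a9 and Slc4a2 lie above all WT libraries, and the Cdk19-/- libraries of Slc26a3, Slc26a6, Slc4a7, Slc9a2 and Slc9a3 lie below them.

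The groups labelled CDK8-/- and CDK19-/- were next compared with WT, with the limits given above on what their Cdk8 and Cdk19 counts show. In Cdk8-/- organoids edgeR called 0 of the 8 genes without Slc26a9, where 5.15% of all genes were called. Slc4a2 was the 1 of the 8 with an unadjusted p under 0.05 (3341 of all 15602 genes tested), and DESeq2 called it, among 1319 genes in all. The values of 6 were positive and those of 2 negative, with a median log2 fold change of 0.16 against 0.01 over all genes.

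In Cdk19-/- organoids 0 of the 9 genes and 0% of all genes were called by edgeR. At an unadjusted p under 0.05 there were 3 of the 9 genes and 1691 of all genes, and DESeq2 called 0 of the 9 and 301 of all. Among the 8 genes without Slc26a9, the values of 7 were negative, with a median log2 fold change of -0.37 against -0.02 over all genes. For 5 of the 8 (Slc26a3, Slc26a6, Slc4a7, Slc9a2 and Slc9a3) every Cdk19-/- library lay below every WT library, which held for 10.8% of all genes tested. Slc26a6 had the smallest adjusted p of them in edgeR (log2 fold change -0.46, SE 0.137, adjusted p = 0.206). Without the library labelled CDK19-/- replicate 1, in which Cdk19 was at the WT level, its log2 fold change was -0.60 and it was called (adjusted p = 0.0329), but so were 521 of all genes tested without that library, against 0 with it.

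By their labels, double knockout and Cdk8-/- organoids differ in Cdk19, but the level of Cdk19 in the library labelled double knockout replicate 3 (773 normalised counts) lay above all Cdk8-/- libraries (702, 646 and 582), and its log2 fold change in this comparison was -0.33 (SE 0.268, edgeR adjusted p = 0.587). Of the 9 genes 0 were called in this comparison by edgeR and 0 by DESeq2, at a background of 0.0256% of genes in edgeR, and 2 of the 9 (Slc26a3 and Slc26a6) and 2417 of all 15602 genes tested had an unadjusted p under 0.05. The fitted values of all 8 genes without Slc26a9 were positive, the largest that of Slc26a3 (log2 fold change 0.57, SE 0.206, adjusted p = 0.226), which was 0.26 without double knockout replicate 1 (adjusted p = 0.481). A departure from additivity was tested as double knockout plus WT against both single mutants. Again edgeR called 0 of the 9 genes, with 0.0256% of all genes called and 5 of the 9 at an unadjusted p under 0.05, as were 2269 of all 15602 genes tested. The departure was 1.11 (SE 0.293, adjusted p = 0.127) on the log2 scale for Slc26a3 and 0.79 (SE 0.193, adjusted p = 0.109) for Slc26a6 in edgeR, and DESeq2 called both (adjusted p = 0.0165 and 0.0108), among 480 genes in all. Without the library labelled CDK19-/- replicate 1 edgeR called Slc26a6 (0.93, adjusted p = 0.021), among 467 genes in all. Without both libraries in which Cdk19 was at the WT level, edgeR called Slc26a3 (1.33), Slc26a6 (1.00) and Slc9a2 (0.66), a choice of libraries made after seeing the data, and 728 of all genes tested were called, against 4 with all libraries. These comparisons share their WT and single-mutant libraries and are not independent of one another.

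After 16 h of Senexin B, 3 of the 8 tested genes were called, all of them higher than in DMSO: Slc26a3, Slc4a7 and Slc9a2. Of all genes tested 7.75% were called and 4.36% of all genes tested were called as higher, and the median log2 fold change was 0.10 over the 8 genes and -0.01 over all. A check of whether the replicate numbers pair the libraries, given with the processing, did not settle it. At 16 h a fit with the replicate number as a block called 2293 genes in place of 1198 and the same number, 3, of the 8. After 24 h 3 of the 8 were called, with Slc9a2 higher (14.8% of all genes were called as higher) and Slc4a4 and Car2 lower (12.7% of all genes), and the median was 0.09 against 0.00. With the replicate block Slc4a7 was called as higher at 24 h too. In a list of 8 genes, the share called at 24 h is not set apart from that of all genes. The DMSO libraries of each time also enter the comparison of DMSO over time and the time difference, so these comparisons are not independent.

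**Figure D3:**
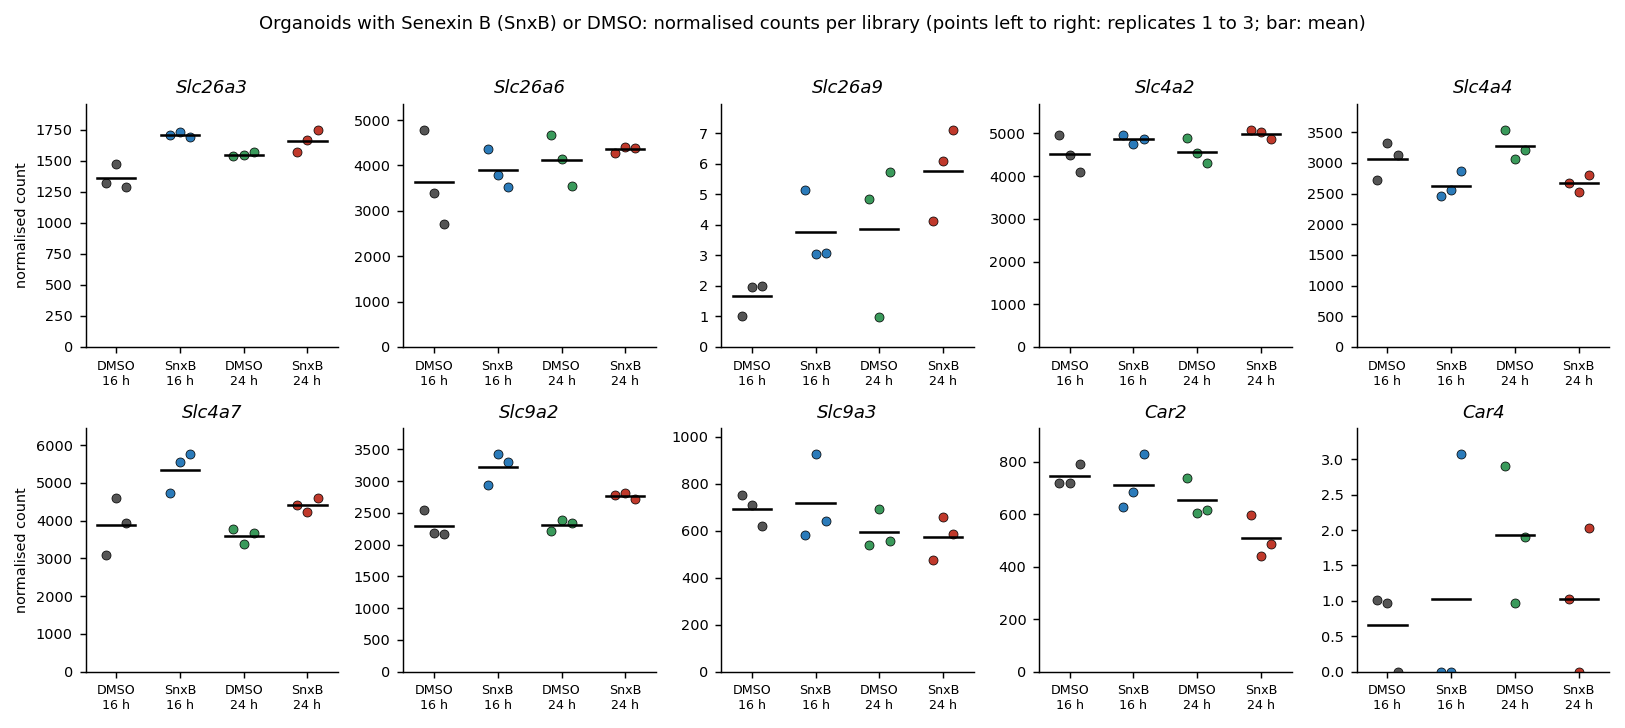
Normalised counts (vertical axis, from 0, own scale per gene) of the 10 genes in the 12 libraries of the inhibitor experiment, DMSO and Senexin B (SnxB) side by side at 16 h and 24 h, with a bar at the mean. Senexin B libraries of Slc4a7 and Slc9a2 lie above the DMSO libraries of the same time, those of Slc4a4 and Car2 lie below them at 24 h, and Slc26a9 and Car4 have at most 7.1 and 3.1 normalised counts.

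Slc26a3 had 1320.1, 1478 and 1293 normalised counts in DMSO and 1707, 1732 and 1696 with Senexin B at 16 h. The Senexin B libraries lay close together and above all DMSO libraries, with a log2 fold change of 0.33 and an SE of 0.0665 (edgeR, adjusted p = 0.0074). At 24 h there were 1536, 1544 and 1571 in DMSO and 1570.4, 1665 and 1751 with Senexin B, and the groups met (log2 fold change 0.10, SE 0.0663, edgeR adjusted p = 0.283). Slc26a6 had 4789, 3399.9 and 2719 normalised counts in DMSO at 16 h and 4368, 3795 and 3529 with Senexin B, and 4663, 4140.3 and 3542 against 4273, 4398 and 4392 at 24 h. The DMSO libraries of Slc26a6 were spread so widely that the 95% intervals of its log2 fold change ran from -0.24 to 0.44 at 16 h and from -0.25 to 0.42 at 24 h. Slc26a9 had 1 to 7 counts in these 12 libraries and was not tested.

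Slc4a7 had 3103, 4591 and 3948 normalised counts in DMSO and 4725, 5558 and 5752 with Senexin B at 16 h. The groups did not overlap, and DMSO replicate 1 was low (log2 fold change 0.46, SE 0.114, edgeR adjusted p = 0.0236). At 24 h it had 3774, 3377 and 3659.9 in DMSO and 4404, 4237 and 4603 with Senexin B, again apart. Its log2 fold change of 0.29 (SE 0.115) was not called at 24 h (edgeR, adjusted p = 0.0716) and was called with the replicate block (adjusted p = 0.0299). The call at 16 h was lost in a fit of both groups alone (adjusted p = 0.0823) and without DMSO replicate 3 (0.0544), Senexin B replicate 2 (0.0826) or Senexin B replicate 3 (0.104).

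Slc4a4 had 2714, 3333 and 3134 normalised counts in DMSO and 2456, 2552 and 2865 with Senexin B at 16 h, which was not called (log2 fold change -0.22, SE 0.0876, edgeR adjusted p = 0.146), but was called without DMSO replicate 1 (-0.30, adjusted p = 0.0312). At 24 h it had 3542, 3066 and 3216 in DMSO and 2672, 2519 and 2809 with Senexin B, all lower, with a log2 fold change of -0.30 and an SE of 0.0876 (edgeR, adjusted p = 0.0223). The electrogenic cotransporter Slc4a4 and the electroneutral Slc4a7 therefore had values of opposite sign at both times. Slc4a2 had 4107 to 4954 normalised counts over the DMSO libraries and 4746 to 5087 over those with Senexin B, and its 95% intervals ran from -0.05 to 0.26 at 16 h and from -0.03 to 0.28 at 24 h on the log2 scale.

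Slc9a2 was the gene called at both times. It had 2537, 2188 and 2169 normalised counts in DMSO and 2939, 3418 and 3306 with Senexin B at 16 h (log2 fold change 0.49, SE 0.0761, edgeR adjusted p = 0.0013). At 24 h it had 2207, 2379.7 and 2341 in DMSO and 2774, 2805 and 2713 with Senexin B (log2 fold change 0.26, SE 0.076, edgeR adjusted p = 0.0215). At each time all Senexin B libraries lay above all DMSO libraries. Slc9a3 had 754, 708 and 619 against 583, 925 and 643 at 16 h and 539.9, 691 and 558 against 474, 657 and 588 at 24 h, with log2 fold changes of 0.05 and -0.06 and overlapping groups.

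Car2 had 720.5, 720.4 and 792 normalised counts in DMSO and 628, 684 and 828 with Senexin B at 16 h, which overlapped (log2 fold change -0.06, SE 0.124, edgeR adjusted p = 0.826). At 24 h it had 740, 604 and 617 in DMSO and 597, 440.3 and 485 with Senexin B, all lower, with a log2 fold change of -0.36 and an SE of 0.126 (edgeR, adjusted p = 0.0447). Its highest Senexin B library and its lowest DMSO library at 24 h nearly met. Leaving out DMSO replicate 1 or Senexin B replicate 2 at 24 h ended the calls of Slc9a2 (adjusted p = 0.0808 and 0.0721), Slc4a4 (0.0939 and 0.0965) and Car2 (0.174 and 0.185) in edgeR. The call of Car2 was also lost without DMSO replicate 2 (0.0509), DMSO replicate 3 (0.059) or Senexin B replicate 3 (0.131). Car4 had 0 to 3 counts in every library and was not tested.

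**Figure D4:**
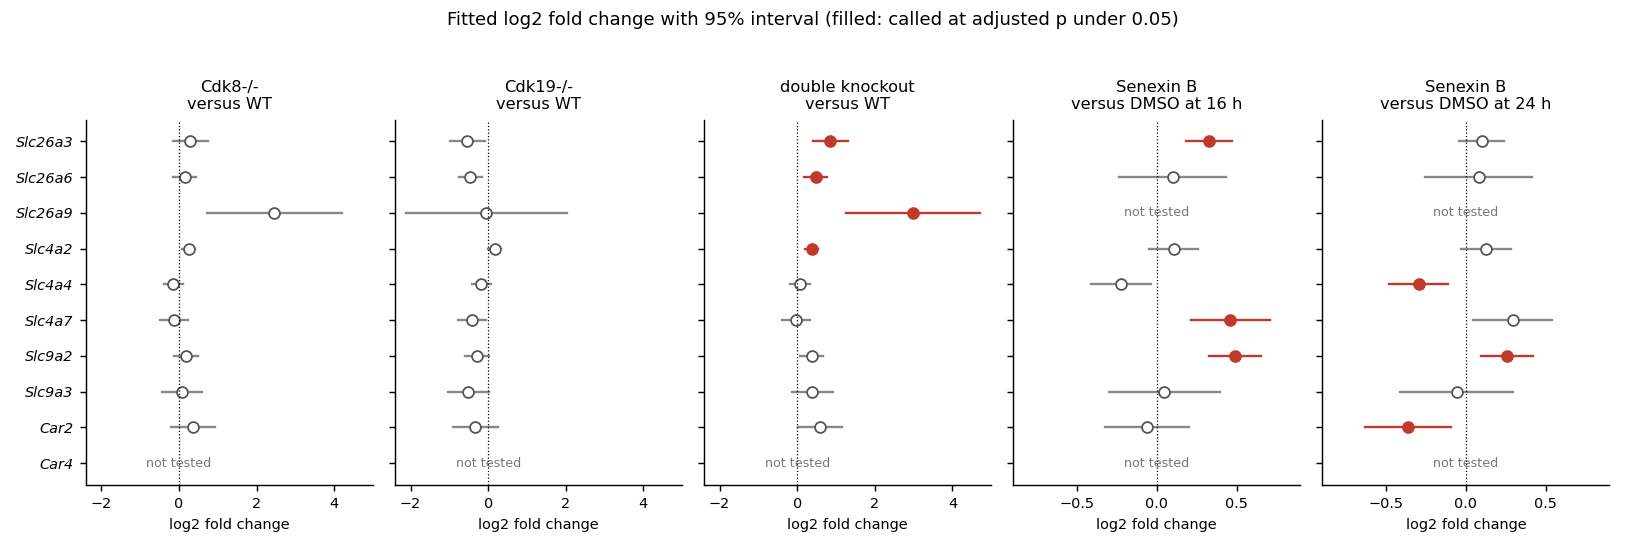
Fitted log2 fold changes (horizontal axis, wider for the genotype panels than for the Senexin B panels) with their 95% intervals in 5 comparisons, filled red where the gene was called. In the double knockout Slc26a3, Slc26a6 and Slc4a2 are filled, as is the low-count gene Slc26a9, and 3 genes at each time of Senexin B, and Slc26a9 has the widest intervals.

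The Senexin B effect was then compared between both times. None of the 8 genes was called by edgeR (0) or by DESeq2 (0), 1 (Slc26a3) had an unadjusted p under 0.05, and over all genes edgeR called 0% (1995 genes at an unadjusted p under 0.05, and 58 called by DESeq2). The values of 7 of the 8 were negative, from -0.02 for Slc26a6 to -0.30 for Car2 (SE 0.177). For Slc26a3 the difference was -0.23 (SE 0.0939, edgeR adjusted p = 0.344) and for Slc9a2 -0.23 (SE 0.107, adjusted p = 0.394), so a smaller effect at 24 h was not shown. In DMSO alone, 24 h against 16 h, 0 of the 8 were called by edgeR and 0 by DESeq2 at a background of 11.1%, and 1 had an unadjusted p under 0.05 (4339 of all genes), Slc26a3 (log2 fold change 0.19, SE 0.0666, adjusted p = 0.0849). Without 1 of the DMSO libraries of 16 h, Slc26a3 (replicate 2, adjusted p = 0.0288) or Slc26a6 (replicate 1, adjusted p = 0.0289) was called in edgeR.

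Across both experiments, Slc26a3 was called in the double knockout and at 16 h of Senexin B, Slc26a6 and Slc4a2 in the double knockout, and Slc4a7, Slc9a2, Slc4a4 and Car2 with Senexin B. The difference between the experiments was not tested, since they have no group in common and the genotype libraries hold fewer counts in the column used.

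Further genes of the same families and their partners were examined as lists, with 9.41% of all genes called as higher and 17.3% in either direction in the double knockout, and 2.79% as higher in Cdk8-/-. In the double knockout 1 of 5 tested other Slc26 genes was higher, Slc26a2, a sulphate transporter (1389, 1363 and 1750 normalised counts in WT against 2643, 2690.2 and 2470.5, log2 fold change 0.79, edgeR adjusted p = 0.00818). Of 4 other Slc4 genes 1 was higher, Slc4a11 (25.1, 39.0 and 13.6 against 101, 112 and 104, log2 fold change 2.02, edgeR adjusted p = 0.00163), which was also higher in Cdk8-/- organoids (log2 fold change 2.17, adjusted p = 0.00277). None of 6 other Slc9 genes was called by edgeR.

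Of 8 other genes of the carbonic anhydrase family, Car13, a cytosolic form, was higher in the double knockout (log2 fold change 0.98, edgeR adjusted p = 0.00723), and Car12, a membrane form, was lower (-0.91, adjusted p = 0.0204). Of 13 scaffold and regulator genes 4 were higher and 1 was lower, against the same shares of all genes. Slc9a3r1, a PDZ scaffold that binds Slc9a3 and Cftr, had 2938, 3165 and 3258 normalised counts in WT, against 5579, 5118 and 5475 in the double knockout (log2 fold change 0.79, edgeR adjusted p = 0.00351). Pdzk1, a second scaffold of this kind, was higher by 1.09 on the log2 scale (adjusted p = 0.00272), whereas the kinase Wnk4 was lower (-0.56, adjusted p = 0.0226) and was also lower in Cdk8-/- organoids (-0.59, adjusted p = 0.0436). The median log2 fold change of the 13 was 0.11.

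With Senexin B, Slc9a4, a basolateral sodium/proton exchanger, had 244, 163 and 176 normalised counts in DMSO and 442, 560.4 and 587 at 16 h (log2 fold change 1.45, edgeR adjusted p = 7.0e-05), and 374, 326 and 319 against 598, 735 and 717 at 24 h (1.01, adjusted p = 0.000273). It was the 1 of 6 other Slc9 genes called at either time. Slc26a2 was called at 16 h (0.51, adjusted p = 0.00436), 1 of 4 other Slc26 genes, and Slc4a5 was lower at 24 h (-0.52, adjusted p = 0.0311), 1 of 4 other Slc4 genes. Of 8 other genes of the carbonic anhydrase family, Car13 (0.34 at 16 h and 0.70 at 24 h) and Car8 (0.61 and 0.59) were higher at both times. Car9, a membrane form known to be induced by hypoxia, was lower at both (-0.39 and -0.54). Car12 was also higher at 24 h (0.32). Family membership by symbol was not taken as enzyme activity. Of the 13 scaffold and regulator genes 0 were called by edgeR at 16 h and 2 at 24 h, both lower (Pdzd3, -0.77, and Ahcyl2, -0.26), and Slc9a3r1 had log2 fold changes of -0.05 and -0.00. Of all genes, 4.36% were called as higher and 3.39% as lower at 16 h and 14.8% as higher and 12.7% as lower at 24 h, and counts of 1 or 2 genes in these short lists are not set apart from those shares.

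Levels of cell type markers moved with the genotypes. The summed level of 10 absorptive enterocyte markers was 8053 to 8691 CPM in WT, 5589 to 7566 in libraries labelled CDK19-/-, 10738 to 11599 in those labelled CDK8-/- and 13771 to 18938 in double knockout organoids, and 6 of the 10 were called as higher in the double knockout and 0 as lower, where 9.41% of all genes were called as higher and 7.9% as lower. Double knockout organoids also had 4 of 6 crypt markers called as lower (1988 to 2232 CPM against 2843 to 3186 in WT), 2 of 4 tuft markers called as lower (19.2 to 48.6 against 48.1 to 75.9 CPM) and 5 of 5 Paneth markers called as higher (2461 to 5036 against 1260.3 to 1659 CPM). Of 6 intestinal epithelium markers 3 were called as higher and 1 as lower there, and 1 of 6 goblet markers was called as higher. So was Csn3 (at most 23 counts in a library), the 1 of 6 mammary markers that was tested. The mammary markers summed to at most 0.27 CPM in WT, so Csn3 passed the filter through other groups and its call is a description only. All 5 Paneth markers were called as higher in Cdk8-/- organoids too (3841 to 5138 CPM), beside 2 of 10 enterocyte and 2 of 6 goblet markers called as higher and 1 of 6 crypt markers called as lower, where 2.79% of all genes were called as higher and 2.36% as lower. In libraries labelled CDK19-/- the crypt markers summed to 3513 to 5607 CPM, above every WT library, and edgeR called 0 of the markers, as it did of all genes. The part of these lists in the values of the exchangers was not tested, and in bulk RNA more cells of a type and more RNA per cell cannot be told apart. With Senexin B the enterocyte sum was 4511 to 4567 CPM against 4227 to 4960 in DMSO at 16 h, with 2 of the 10 markers called as higher and 1 as lower, and 4217 to 4699 against 3992 to 4399 at 24 h, with 4 called as higher and 1 as lower. Paneth markers summed to 1489 to 1927 CPM against 1954 to 2819 in DMSO at 16 h, with 2 of 5 called as lower, and to 1253 to 1717 against 2785 to 2995 at 24 h, with 4 of 5 called as lower. At 16 h 3 of 5 enteroendocrine and 2 of 6 goblet markers and the gastric marker Tff2 were also called as higher and 1 of 6 crypt markers as lower, where 4.36% of all genes were called as higher and 3.39% as lower. At 24 h 3 of 5 enteroendocrine, 3 of 4 tuft and 3 of 6 goblet markers and Tff2 were called as higher, and 1 goblet, 1 crypt and 2 of 6 intestinal epithelium markers as lower, where 14.8% of all genes were called as higher and 12.7% as lower. Their part in the values of Slc26a3, Slc4a7, Slc9a2, Slc4a4 and Car2 was not tested. Gastric surface markers, relevant to Slc26a9, summed to at most 2.99 CPM in the genotype libraries and to at most 4.82 CPM in the inhibitor libraries, and non-epithelial markers to at most 4.88 CPM in the genotype libraries.

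The genes whose level ran closest to Slc26a9 over the 12 genotype libraries were Mlph (Pearson r = 0.97), Slc2a6 (0.97), Adam8 (0.97), BC037156 (0.96) and Tmem178b (0.96). For Car2 over the 12 inhibitor libraries they were Scn8a (0.93), Pfkfb3 (0.92), Vldlr (0.92), Fam3b (0.91) and Egln3 (0.91). These are descriptions over libraries that share their groups and depth. Slc26a9 is itself low, and Slc2a6, BC037156 and Tmem178b averaged 21.3, 5.89 and 14.9 normalised counts, so the values of r for Slc26a9 rest on few counts. In the genotype experiment the same pairs with Car2 gave 0.70, -0.49, -0.45, 0.71 and -0.03, so the likeness to Pfkfb3, Vldlr and Egln3 was not seen there.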

How the data were processed

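RNA of 24 libraries was examined, 12 per experiment. The authors aligned single-end reads with STAR to GRCm38.p6, for which the submitters' processing notes name version 2.6.0c (FastQC is also named), and deposited counts per Ensembl gene, unnormalised, in an unstranded column and 1 for each strand. Column 4 was used; the unstranded column was an alternative. Of the reads, 63.1 to 65.2% in the genotype and 21.5 to 25.1% in the inhibitor libraries were not counted on a gene there. In the genotype libraries, whose reads carry no strand information, these include reads that fell in the column of the other strand. Rows that name no gene were left out of library sizes.

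Counts were filtered with filterByExpr, normalised by TMM and analysed in edgeR 4.0.16 (R 4.3.3) by its quasi-likelihood F test, over the 12 libraries of each experiment separately. Normalised counts are counts divided by the effective library size and multiplied by its mean over the experiment, and SE is the absolute log2 fold change divided by the root of F. All p-values are two-sided and adjusted by Benjamini-Hochberg over all genes tested, and measure the spread between libraries. DESeq2 1.42.0 was an alternative, as were DESeq2 size factors, other filters, a replicate block, a fit of the compared groups alone and leaving out each library. No pair of replicates was a duplicate (chi-square per degree of freedom 2.31 to 35.9). The script was tested on simulated data. Of 200 genes planted in simulated genotype counts, edgeR recovered 176 with 8 false calls and DESeq2 183 with 32. In simulated inhibitor counts, edgeR recovered 200 with 21 false calls and DESeq2 199 with 30. Figures were drawn with matplotlib 3.10.9.

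Deviations of same-numbered libraries from their group means correlated at 0.30, 0.10 and 0.11 at 16 h and at 0.38, 0.14 and 0.19 at 24 h of Senexin B and DMSO (log2 CPM with a prior count of 2). The highest correlation of differently numbered libraries was 0.154 at 16 h and 0.147 at 24 h. Replicates 2 and 3 at 16 h and replicate 2 at 24 h lay below it. This check therefore does not settle whether the numbers pair the libraries there. The reported fit has no block, and blocked values are given where they change a call or a count. In the genotype comparisons the numbers do not pair the libraries. A pairing would rest on these correlations alone, and no label says what a number shares.

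All 10 genes are named, and of the other lists the 2 called genes with the largest rise and the 2 with the largest fall per comparison, if their mean reached 50 normalised counts, plus Cftr and Slc9a3r1. Car12 at 24 h was named outside this rule. Likeness was taken for the called gene with the largest change in the double knockout and at 24 h. The genes, lists and motifs were chosen with earlier results of these data known. Gene positions are those of GENCODE vM21, which covers 54079 of the 54146 genes, and promoter windows those of RefSeq, both on GRCm38.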

Additional observations from a re-analysis of the deposited data

How the results depend on the processing

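Of the calls in the double knockout, that of Slc4a2 held under all 13 alternatives (log2 fold change 0.33 to 0.42), that of Slc26a3 under 11 and of Slc26a6 under 9. All exceptions left out 1 library, and the number of the genes called then ran from 1 to 6, with the low-count gene Slc26a9 included where it was called. It was 1 without WT replicate 1, 2 without WT replicate 2 (Slc4a2 and Car4), 2 without double knockout replicate 2 and 6 without double knockout replicate 3 (Slc26a9 among them). Car4 was not tested with all libraries, and WT replicate 2 is the 1 WT library with counts of it. Without that library the WT counts of Car4 were all 0, so that its call is a description only. With Senexin B, Slc26a3 and Slc9a2 at 16 h held under all 13, Slc4a7 at 16 h under 9, Slc9a2 and Slc4a4 at 24 h under 11 each and Car2 at 24 h under 8. Their number at 24 h ran from 0 to 3 when 1 library was left out, with 0 without DMSO replicate 1 and 0 without Senexin B replicate 2. The cause was not tested for any of these changes. With 1 library left out the number called ran from 0 to 1 in Cdk8-/- (Slc26a9), in Cdk19-/- and in DMSO over time, and from 0 to 1 for the departure from additivity (Slc26a6), or to 3 without both libraries in which Cdk19 was at the WT level. DESeq2 called 2 genes in Cdk8-/- (Slc4a2 and Slc26a9) and 2 for the departure. Without a filter 1 was called in Cdk8-/- (Slc26a9), 1 in Cdk19-/-, 1 in double knockout against Cdk8-/- and 2 for the departure. The replicate block gave 1 in DMSO over time (Slc26a3, adjusted p = 0.0443 in edgeR), where same-numbered libraries correlated at 0.37, -0.05 and 0.28. The block changed no other call of these genes than that of Slc4a7 at 24 h.

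Counts over all genes moved more. DESeq2 called 1319 genes in Cdk8-/-, 301 in Cdk19-/-, 365 in double knockout against Cdk8-/-, 480 for the departure from additivity and 58 for the time difference. Without a filter there were 1269, 479, 358, 566 and 121 in the same order. A minimum of 10 counts in every library gave 1 in double knockout against Cdk8-/- and 0 for the departure, and the unstranded column 9 for the departure. The replicate block gave 1 in double knockout against Cdk8-/-, 8 for the departure, 2293 at 16 h, 60 for the time difference and 3281 in DMSO over time. Only the groups compared gave 15 in Cdk19-/-, 0 in double knockout against Cdk8-/-, 725 at 16 h and 385 in DMSO over time. Leaving out 1 library gave 196 to 699 in Cdk8-/-, 0 to 521 in Cdk19-/- (521 without CDK19-/- replicate 1), 1348 to 2452 in the double knockout, 3 to 839 against Cdk8-/- (7 without double knockout replicate 3, and 839 when CDK8-/- replicate 3 was left out), 0 to 467 for the departure (467 without CDK19-/- replicate 1, 71 and 42 without double knockout replicates 2 and 3, and 728 without both libraries in which Cdk19 was at the WT level, added after seeing the data), 657 to 1819 at 16 h, 2656 to 3805 at 24 h, 0 to 26 for the time difference and 434 to 2296 in DMSO over time.

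Signs turned for genes that were not called. In the unstranded column Slc9a3 had a log2 fold change of -0.0121 in Cdk8-/-, Slc26a9 0.23 in Cdk19-/- and Slc9a2 -0.00505 in DMSO over time. Leaving out libraries gave log2 fold changes on both sides of 0 as follows. In Cdk8-/- organoids, values ran for Slc9a3 from -0.12 to 0.20. In Cdk19-/- organoids, values ran for Slc26a9 from -0.37 to 0.32. In the double knockout, values ran for Slc4a4 from -0.0316 to 0.13 and Slc4a7 from -0.17 to 0.0788. Against Cdk8-/-, values ran for Car2 from -0.19 to 0.49, Slc26a9 from -0.11 to 1.70 and Slc4a7 from -0.0323 to 0.26. For the departure from additivity, values ran for Slc26a9 from -0.0533 to 1.74 and Slc4a2 from -0.0951 to 0.0206. At 16 h of Senexin B, values ran for Car2 from -0.18 to 0.0226, Slc26a6 from -0.0719 to 0.35 and Slc9a3 from -0.17 to 0.18. At 24 h, values ran for Slc26a6 from -0.0158 to 0.18 and Slc9a3 from -0.17 to 0.0623. For the time difference, values ran for Slc26a6 from -0.27 to 0.15, Slc4a2 from -0.0507 to 0.0852, Slc4a4 from -0.14 to 0.00468 and Slc9a3 from -0.23 to 0.11. In DMSO over time, values ran for Slc4a2 from -0.0451 to 0.0907, Slc4a7 from -0.24 to 0.0323 and Slc9a2 from -0.0324 to 0.0847. Depth limits Slc26a9 and Car4 most, since a change of a few reads alters their values.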

Other observations

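Partners of the exchangers in chloride secretion were examined as a list of 7 genes, all tested. In the double knockout Kcne3, a subunit of the basolateral potassium channel, had 251, 239 and 215 normalised counts in WT, against 759.9, 696 and 418 in the mutants, a log2 fold change of 1.41 (edgeR, adjusted p = 0.00377), while Kcnq1, the pore of that channel, fell by 0.45 on the log2 scale (adjusted p = 0.00833). Cftr, the apical chloride and bicarbonate channel, had 3716, 3615 and 2130 in WT and 2117, 1949 and 2091 in the double knockout, which was not called (log2 fold change -0.62, SE 0.199, edgeR adjusted p = 0.0505). The third WT library stood near the double knockout libraries. By its own analysis and by qRT-PCR the study reports Cftr as reduced in double knockout organoids, and its protein as lost, so the missing call does not show an unchanged gene. In Cdk8-/- organoids Kcne3 was the 1 gene of the list called, at a log2 fold change of 1.51 (edgeR, adjusted p = 0.00763). Of all genes, 2.79% were called as higher in Cdk8-/-, and 9.41% as higher and 7.9% as lower in the double knockout.

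With Senexin B, 2 of the 7 were higher at 16 h and 4 at 24 h, with none lower by edgeR's test, where 4.36% and 14.8% of all genes were called as higher. Kcnn4, a calcium-activated potassium channel, had 2383, 2884 and 2798 normalised counts in DMSO and 3823, 4167 and 4167 with Senexin B at 24 h (log2 fold change 0.59, edgeR adjusted p = 0.000129), and Slc12a2, the basolateral loader of chloride, had 27710, 25528 and 29379 against 41053, 34648 and 36178 (0.44, adjusted p = 0.0128). Cftr had log2 fold changes of 0.10 at 16 h (SE 0.0945) and -0.19 at 24 h (SE 0.0944), neither of them called. In DMSO alone Slc9a4 (log2 fold change 0.81, edgeR adjusted p = 0.00704) and Slc26a2 (0.34, adjusted p = 0.036) were higher at 24 h than at 16 h, so both also changed with time in the vehicle, and Kcne3 was lower (-0.63, adjusted p = 0.00397).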
